A study of Homo sapiens with 8 samples.

Results

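The genes described here are 2 RUNX paralogs, RUNX2 and RUNX3, the common partner CBFB, and the ETO family, CBFA2T2, CBFA2T3 and RUNX1T1. Their PML::RARA peaks were taken from a Cut&Run peak list by symbol, together with every peak without a symbol whose centre lay within 50 kb, on the same chromosome, of the centre of such a peak. This gave 17 of the 15412 peaks in the list, 8 that carried the symbol of a member and 9 that carried none. The 8 labelled peaks belonged to 5 of the 6 genes, since RUNX1T1 had no peak under its symbol and therefore no neighbouring peak by this rule.

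U937-PR9 is a monocytic leukaemia line with a PML::RARA transgene under a zinc-inducible metallothionein promoter. The study made 8 Cut&Run libraries, 2 replicates for each of 4 groups, in which anti-PML-RARA or anti-RARA antibody was applied to nuclei of induced cells (100 μM ZnSO4, 5 h) or of uninduced cells (water, 5 h). All groups carry the same transgene, and the endogenous RARA and PML genes are present in each. Of these, the peak list for anti-PML-RARA and induced cells was analysed here and those of the other groups were not. All induced cells received zinc and no uninduced cells did, so an effect of zinc itself cannot be told apart from one of the fusion. Transgenic U937-PR9 cells are a model of the fusion in a monocytic background and are not leukaemia cells of a patient, and a peak list holds no RNA from which markers of the cell type could be checked. The list gives a single height and total per peak, and therefore no value below has an error over replicates. The sequencing depth of the libraries is unknown.

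Core-binding factor is a heterodimer of a RUNX protein, which contacts DNA through its Runt domain, and CBFβ, which does not bind DNA itself and stabilises the complex. RUNX1 drives definitive haematopoiesis, and each RUNX gene has a distal and a proximal promoter that give proteins with different amino termini. ETO proteins do not bind DNA directly. They bridge sequence-specific factors such as E proteins to NCoR, SIN3A and histone deacetylases, and RUNX1T1 and CBFA2T3 are also known as fusion partners of RUNX1 in acute myeloid leukaemia, as CBFB is known as a partner of MYH11.

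The sequences that best show how the peaks of these genes differ are printed first, each 200 bases of GRCh37/hg19 beside or over the apex of a peak, 5′ to 3′ on the strand of the gene. Capitals mark matches on either strand to a RUNX motif, an ETS motif within its longer PU.1 form, a nuclear receptor half-site or a GC-box, whose letters are given with the motif counts. The first 3 hold RUNX matches in 3 of the 5 RUNX3 peaks that have one, at the distal promoter (chr1:25291613-25291812, minus strand), 1.3 kb upstream of it (chr1:25292656-25292855, minus strand) and in the intron below it (chr1:25281689-25281888, minus strand). The next 3 are GC-box promoters of RUNX3 (proximal, chr1:25256769-25256968, minus strand), CBFB (chr16:67062687-67062886, plus strand) and CBFA2T2 (chr20:32077648-32077847, plus strand), and the last holds the PU.1 match of the CBFA2T3 peak upstream of its start (chr16:89045543-89045742, minus strand). Printed stretches avoid exons of protein-coding genes. That of CBFB therefore lies beside the apex and holds only the GC-box at base 42, whereas the motif counts below are of wider windows.
RUNX3 distal promoter: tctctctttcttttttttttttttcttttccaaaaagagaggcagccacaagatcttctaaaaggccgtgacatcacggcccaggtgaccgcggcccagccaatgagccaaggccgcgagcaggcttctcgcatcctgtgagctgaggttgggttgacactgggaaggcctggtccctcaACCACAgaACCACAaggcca
RUNX3 upstream peak: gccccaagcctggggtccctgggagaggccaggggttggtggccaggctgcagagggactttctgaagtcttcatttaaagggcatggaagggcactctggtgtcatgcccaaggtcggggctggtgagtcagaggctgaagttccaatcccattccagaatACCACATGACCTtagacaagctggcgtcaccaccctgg
RUNX3 intronic peak: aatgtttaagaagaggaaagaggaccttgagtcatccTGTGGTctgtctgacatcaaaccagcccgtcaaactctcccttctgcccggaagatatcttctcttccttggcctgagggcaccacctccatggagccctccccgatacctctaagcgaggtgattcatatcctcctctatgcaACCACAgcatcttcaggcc
RUNX3 proximal promoter: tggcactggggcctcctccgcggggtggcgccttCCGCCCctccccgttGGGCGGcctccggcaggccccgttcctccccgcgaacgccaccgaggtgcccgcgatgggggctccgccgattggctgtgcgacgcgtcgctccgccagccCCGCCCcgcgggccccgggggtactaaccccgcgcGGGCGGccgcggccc
CBFB promoter: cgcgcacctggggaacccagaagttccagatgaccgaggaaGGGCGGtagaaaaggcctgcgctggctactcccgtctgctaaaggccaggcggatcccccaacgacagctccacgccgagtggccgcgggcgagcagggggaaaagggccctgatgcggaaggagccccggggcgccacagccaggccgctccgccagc
CBFA2T2 promoter: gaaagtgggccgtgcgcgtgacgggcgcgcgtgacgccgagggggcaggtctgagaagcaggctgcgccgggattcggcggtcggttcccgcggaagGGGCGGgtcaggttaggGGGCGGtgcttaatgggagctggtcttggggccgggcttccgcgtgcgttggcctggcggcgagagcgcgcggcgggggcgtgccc
CBFA2T3 upstream peak: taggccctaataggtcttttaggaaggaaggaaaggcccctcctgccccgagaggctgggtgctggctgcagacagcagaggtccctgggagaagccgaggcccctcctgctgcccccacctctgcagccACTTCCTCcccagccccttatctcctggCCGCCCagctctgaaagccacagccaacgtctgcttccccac

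Across the list, 30.0% of 20098 protein-coding genes had a peak under their symbol, and 5 of the 6 members did (Wilson 95% interval 43.6% to 97.0%, which covers the counting of genes only). RUNX3 carried 3 labelled peaks and CBFA2T3 carried 2, against 2.57% of protein-coding genes with 2 or more. RUNX2, CBFB and CBFA2T2 carried 1 each. Counted by position rather than by symbol, the same 5 genes had a peak apex within 1 kb of an annotated start site, where 39.3% of protein-coding genes did. An apex is the midpoint of the interval with the largest signal of a peak, and that largest signal is called the peak height here. The members were chosen with these results known, so none of these shares was tested.

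The labelled member peaks were broad and of ordinary height. All 8 were at or above the median width of the list, 829.5 bp, with a median of 1266 bp, whereas 3 of 8 reached the median height of 25. Their median stood at the 43.0th percentile by height, at the 74.8th by width and at the 74.0th by total signal, which is the signal summed over the peak. Labelled peaks as a class were wider than the others (median 1108 bp against 634 bp), and among labelled peaks only, the members' median width stood at the 60.2nd percentile and their median height at the 37.7th. The 9 unlabelled peaks had a median height of 19 and a median width of 512 bp, and 3 of the 9 reached the median of the list in height and 3 in width. A peak low because few cells are bound and a peak low because binding is weak in all cells cannot be told apart by height.

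**Figure D1:**
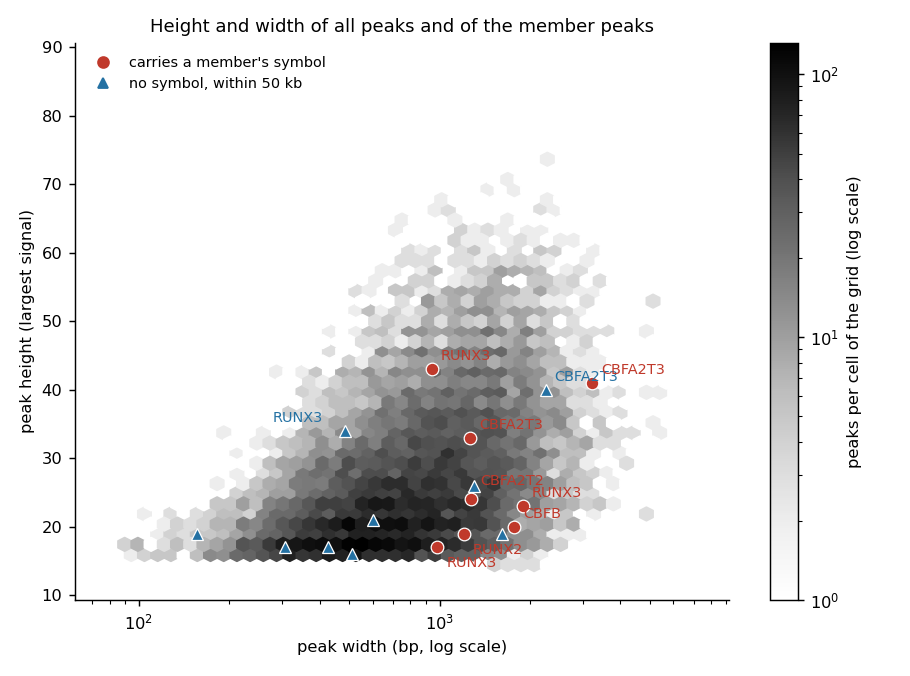
Peak height (largest signal, linear axis) against peak width (bp, log axis), with all 15412 peaks as grey hexagons shaded by number and the member peaks as red circles (carrying a symbol) and blue triangles (no symbol, within 50 kb). The 8 labelled peaks spread from 942 to 3225 bp and from 17 to 43 in height, with CBFA2T3 at the wide edge.

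RUNX3 (ENSG00000020633, chromosome 1, 25226002 to 25291612, minus strand), a RUNX factor expressed in lymphoid and myeloid cells, had a labelled peak at each of its promoters. The peak at the distal promoter (chr1:25291388-25292329, 942 bp) had a height of 43, which ranked 1386 of 15412 (89.9th percentile, 167 peaks tied), while its width ranked 6520 (57.6th percentile). Its apex lay 160 bp upstream of the distal coding start site at 25291501 and 49 bp upstream of a further annotated start. The peak at the proximal promoter (chr1:25255540-25257429, 1890 bp) showed the opposite form, low and wide, with a height of 23 (rank 8433, 40.7th percentile) and a width rank of 1280 (91.7th percentile). Its apex lay 102 bp upstream of the proximal start site at 25256767, which is also intron 1 of the transcript that begins at the distal promoter. The third labelled peak (chr1:25292538-25293520, 983 bp) lay 1255 bp upstream of the distal coding start, with a height of 17 (rank 13294, 7.36th percentile, 984 tied) and a width rank of 6117 (60.2nd percentile). The distal promoter was thus the higher of the pair, and the proximal one the wider, with a total signal of 17424 against 11908.

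Unlabelled peaks were most numerous around RUNX3. Within 50 kb of its 3 labelled peaks lay 3, 5 and 5 unlabelled peaks, 5 in all, where the median labelled peak in the list had 0 and the upper quartile was 2. The highest of them (chr1:25281546-25282031, 486 bp) lay in intron 1 of the distal transcript, 9712 bp below the distal start, with a height of 34 (rank 3401, 75.9th percentile) and a width rank of 12236 (20.5th percentile). The lncRNA RUNX3-AS1 had the nearest annotated start to it, 6047 bp from its apex. The widest (chr1:25336218-25336729, 512 bp) lay 45086 bp upstream of the distal start with a height of 16 (rank 14278, 0.130th percentile) and a width rank of 11842 (23.1st percentile). The other 3 had heights of 17, 17 and 19 and widths of 426, 305 and 156 bp, so that 4 of the 5 peaks were below the median of the list in height and all 5 in width.

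RUNX2 (ENSG00000124813, chromosome 6, 45295894 to 45632086, plus strand), the RUNX factor that directs osteoblast differentiation, had 1 labelled peak, at the proximal of its 2 promoters. This peak (chr6:45389179-45390383, 1205 bp) had a height of 19 (rank 11488, 19.5th percentile, 913 tied) and a width rank of 4286 (72.1st percentile). Its apex lay 195 bp upstream of the proximal coding start at 45390222, in intron 2 of the canonical transcript. It also lay 191 bp downstream of a further annotated start at 45389836 and within an exon of another RUNX2 transcript. No peak lay at the distal promoter, where the nearest apex was 49239 bp away, in a peak labelled SUPT3H (chr6:45345038-45346343, height 30) that itself sits in intron 2 of RUNX2 and 13 bp from a start site of SUPT3H. The 1 unlabelled neighbour (chr6:45413289-45413887, 599 bp), in intron 5 with its centre 23807 bp from the labelled peak, had a height of 21 (rank 9879, 30.6th percentile) and a width rank of 10586 (31.2nd percentile). RUNX2 thus had a low proximal promoter peak, at 19, and the proximal peak of RUNX3, at 23, was similar. The distal peak of RUNX3 was higher, at 43. RUNX3 had more unlabelled neighbours, but apart from the one of height 34 they were lower than that of RUNX2, at 16, 17, 17 and 19.

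CBFB (ENSG00000067955, chromosome 16, 67062887 to 67134961, plus strand), which encodes the CBFβ subunit shared by all RUNX proteins, had a single peak over its promoter and none elsewhere in the gene. The peak (chr16:67062465-67064230, 1766 bp) had a height of 20 (rank 10691, 25.5th percentile, 797 tied) and a width rank of 1587 (89.7th percentile). Its apex lay 3 bp from an annotated start and 129 bp upstream of the coding start at 67063019. The nearest peaks on either side carried the symbols CES3 and C16orf70, both with a height of 18, and no unlabelled peak was within 50 kb.

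CBFA2T2 (ENSG00000078699, chromosome 20, 32077881 to 32237842, plus strand), an ETO-family corepressor, likewise had a single promoter peak. The peak (chr20:32077464-32078734, 1271 bp) had a height of 24 (rank 7817, 45.3rd percentile, 616 tied) and a width rank of 3840 (75.1st percentile). Its apex lay 154 bp upstream of the first coding start at 32077902, outside the gene body, so that no apex lay over the 159962 bp of the gene.

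CBFA2T3 (ENSG00000129993, chromosome 16, 88941266 to 89043615, minus strand), the ETO-family corepressor of haematopoietic progenitors, held the widest peak of the members. Its peak at the first start (chr16:89041446-89044670) spanned 3225 bp, rank 155 of 15412 (99.0th percentile), with a height of 41 (rank 1727, 87.7th percentile, 174 tied) and a total signal of 34581 (97.9th percentile). Its apex lay 58 bp downstream of the start at 89043615, in the untranslated part of exon 1. The second labelled peak (chr16:89044820-89046080, 1261 bp), 2028 bp upstream, had a height of 33 (rank 3709, 73.8th percentile) and a width rank of 3901 (74.6th percentile). Averaged over its length its signal was 15.6 per base, higher than in 93.9% of all peaks and above the 10.7 per base of the wider peak. Of the 3 unlabelled peaks, the one that was both highest and widest (chr16:89002160-89004411, 2252 bp) lay in intron 1, 4542 bp inside an alternative start at 89007606, with a height of 40 (rank 1901, 86.4th percentile) and a width rank of 661 (95.7th percentile). The start of a lncRNA gene, ENSG00000261226, was nearest to this apex, at 1100 bp. The other 2 had heights of 19 and 26 and widths of 1610 and 1301 bp, and the lower of them lay 678 bp from a coding start at 89024183 although it carried no symbol. CBFA2T3 therefore differed from CBFA2T2 in number, height and width of peaks, over genes of 102350 and 159962 bp.

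RUNX1T1 (ENSG00000079102, chromosome 8, 92967200 to 93115514, minus strand), the ETO gene itself, had no peak under its symbol, over its 148315 bp or at any of its 7 groups of coding starts. The nearest apex in the list was 884728 bp from the gene, and 4.23% of protein-coding genes were at least as far from a peak. Having no peak over the gene was common for its length, since 61.2% of the 2263 protein-coding genes of that length or more had none. In a list of reproducible peaks above a minimum, absence of a peak says only that none passed the authors' threshold.

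**Figure D2:**
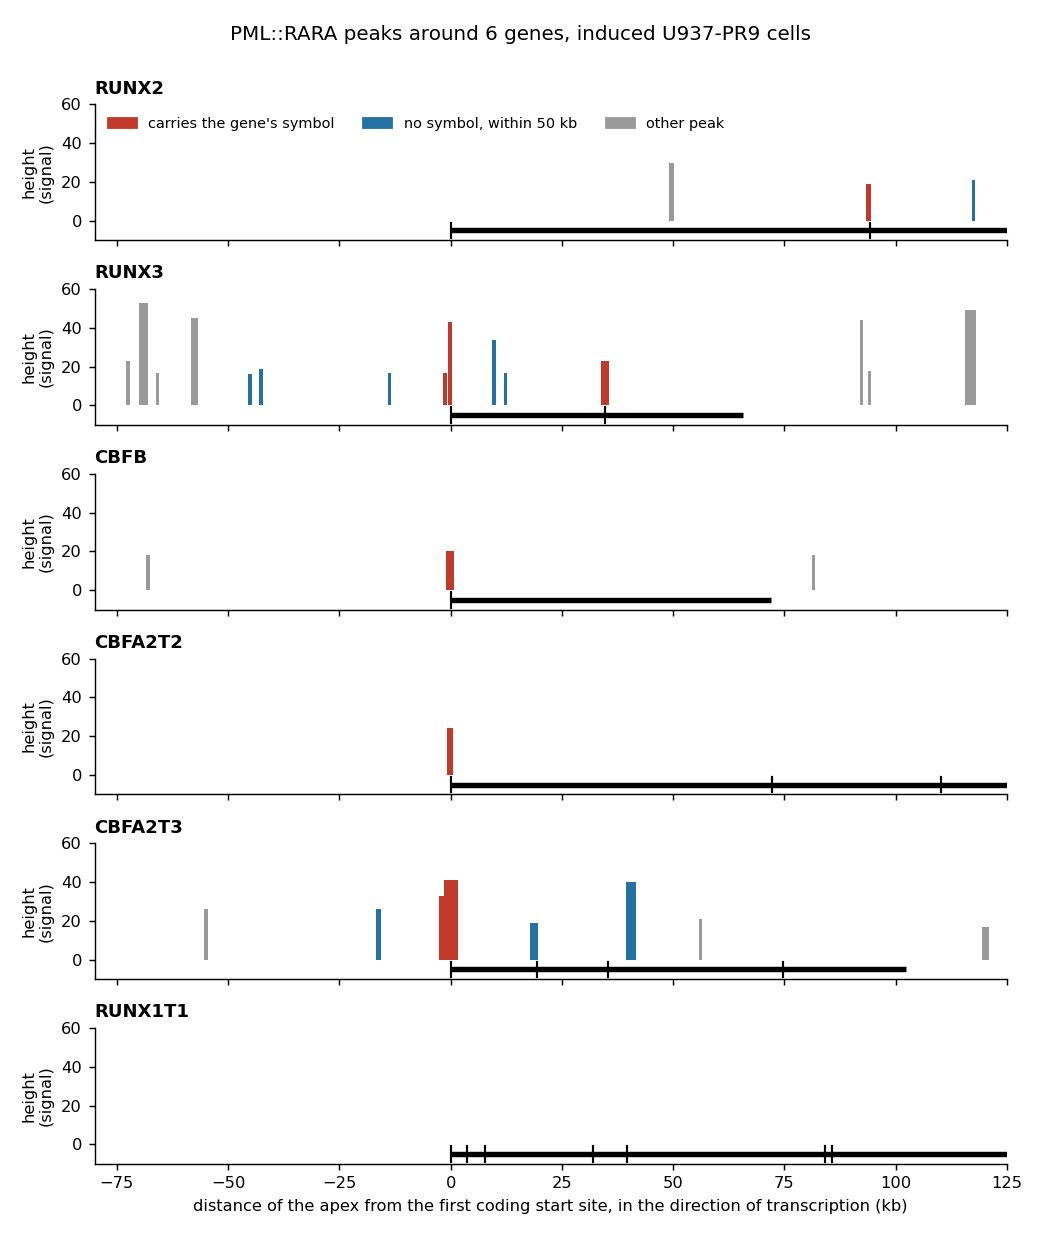
Peaks around the 6 genes, drawn at the distance of the apex from the first coding start site in the direction of transcription (kb). Bar height is the peak height (largest signal) and bar width the peak width, except that narrow peaks are drawn at a fixed minimum width. Black bars are gene bodies, cut at the right edge of the axis, and ticks are groups of coding starts. RUNX3 and CBFA2T3 have 8 and 5 red or blue peaks, CBFB and CBFA2T2 have 1 each, and RUNX1T1 has none.

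Coding start sites less than 1 kb apart were joined into groups, which gave 20 groups over the 6 genes. An apex lay within 1 kb of 7 of the 20 (35.0%, Wilson 95% interval 18.1% to 56.7%), against 22.7% of 35913 groups of all protein-coding genes. Both groups of RUNX3, 1 of 2 of RUNX2, the single group of CBFB, 1 of 4 of CBFA2T2 and 2 of 4 of CBFA2T3 had one, and none of 7 of RUNX1T1 did. In CBFA2T2 only the first group had an apex near it, and in RUNX2 only the second. The groups of a gene share a locus and are not independent, so the interval covers counting only.

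**Figure D3:**
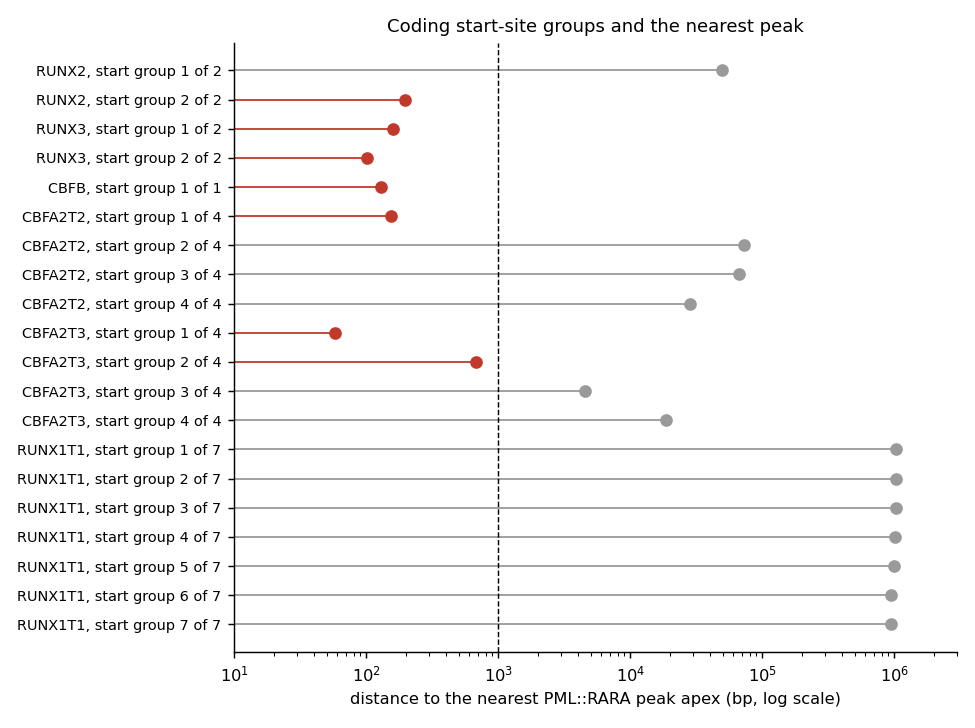
Distance (bp, log axis) from each of the 20 groups of coding starts to the nearest PML::RARA peak apex, with groups within 1 kb (dashed line) in red. The 7 red groups lie 58 to 678 bp from an apex, and all 7 RUNX1T1 groups lie 947119 bp or more from one.

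Over the gene bodies, an apex was present in 4 of the 6 members, against 29.3% of protein-coding genes. RUNX2 and CBFA2T3 held 4 each, RUNX3 held 3 and CBFB held 1. The 4 over RUNX2 include the peak labelled SUPT3H. As many as 4 were found in 1.93% of protein-coding genes and as many as 3 in 3.81%, but these shares take genes of every length. Of the 692 protein-coding genes at least as long as RUNX2, 65.0% had no apex over them. Per 100 kb of gene the number was 4.57 for RUNX3, 3.91 for CBFA2T3, 1.39 for CBFB and 1.19 for RUNX2. It was 1.15 for RUNX1, the RUNX paralog outside the list, which held 14 over a gene annotated as far longer. That length runs from a coding start of 1 transcript at 37376965, 955 kb upstream of the start called distal here. The RUNX1 value depends on this annotation and is not directly comparable with the others. Of the 8 labelled peaks, 6 had an unlabelled peak within 50 kb, against 48.5% of labelled peaks, and the exceptions were CBFB and CBFA2T2. The 6 were 3 peaks of RUNX3, 2 of CBFA2T3 and 1 of RUNX2. Peaks of the same gene shared their neighbours, so the 6 are not independent cases. The unlabelled peak just inside the distance limit was the RUNX3 peak of height 16 at 43444.5 bp between centres. Just outside it were peaks at 53146 bp (height 26) and 55608.5 bp (height 21) from CBFA2T3 and at 56078.5 bp (height 45, 1588 bp wide) from RUNX3.

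The 200 bp on either side of each apex, a window of 401 bp, were scanned for short motifs in both orientations. The RUNX motif was TGTGGT or TGCGGT. It occurred in 2 of the 8 labelled member peaks, both of them of RUNX3, against 28.0% of all labelled peaks, and in 4 of the 9 unlabelled ones against 47.8%. Within 100 bp, the same counts, 2 of 8 and 4 of 9, stood above the shares of all peaks, 16.6% and 34.3%. Within 500 bp the counts, 2 of 8 and 5 of 9, stood below those shares, 53.5% and 69.6%. The 4 unlabelled peaks were 3 peaks of RUNX3 and the CBFA2T3 peak near the start at 89024183. The promoter peaks of RUNX2, CBFB, CBFA2T2 and CBFA2T3 and the proximal one of RUNX3 thus held no RUNX match within 200 bp. Windows differed in base composition between the classes of peak, with a median GC content of 64.3% in all labelled and 52.9% in all unlabelled peaks, and of 69.6% and 53.9% in those of the members.

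The GC-box, GGGCGG, was present in 7 of the 8 labelled member peaks, against 76.2% of all labelled peaks. The proximal promoter of RUNX3 and the promoter of CBFB had 7 matches each and that of CBFA2T2 had 6, whereas the distal promoter of RUNX3 had 1. Their windows held 75.8%, 74.6%, 74.1% and 58.4% GC in the same order. The 2 RUNX3 promoters therefore differed in motif content as well as in the height and width of their peaks.

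The ETS motif GGAAGT was present in 4 of 8 labelled and 3 of 9 unlabelled member peaks, against 36.7% and 47.1%. Its longer form bound by PU.1, the myeloid ETS factor, is written GAGGAAGT here and holds the ETS letters at its end. It was present in 3 labelled member peaks, that of CBFB and both of CBFA2T3, against 5.27% of all labelled peaks, and in 0 of the 9 unlabelled ones against 11.8%. The nuclear receptor half-site AGGTCA, the element that RARA contacts, was present in 2 of 8 and 3 of 9 member peaks, against 16.6% and 28.8%. Retinoic acid receptors are known to bind paired half-sites. Pairs of exactly AGGTCA or GGGTCA on 1 strand with 0 to 8 bases between them were found in 0 of 8 and 0 of 9. They were rare throughout (0.600% and 0.837%). Half-sites with other letters were not searched, so these counts do not cover every form of the element.

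The C/EBP motif TTGCNNAA was found in 0 of 8 labelled and 2 of 9 unlabelled member peaks, against 10.3% and 22.6%. The AP-1 motif TGANTCA was found in 1 of 8 and 2 of 9, against 7.41% and 26.7%, and all 3 of these peaks were of RUNX3. The E-box CANNTG, read by E proteins and other helix-loop-helix factors, was present in every member window, as it was in 71.1% of labelled and 89.4% of unlabelled peaks. Its form CAGGTG, which is also counted under the E-box, was present in 5 of 8 and 3 of 9, against 23.3% and 27.3%, but within 100 bp in 1 of 8 and 0 of 9, against 10.3% and 12.5%. A core of the zinc response element, TGCACNC or TGCGCNC, was present in 1 of 8 and 1 of 9, against 45.7% and 31.0%, at the start of CBFA2T3 and in a RUNX3 peak far upstream. Within 500 bp it was present in 4 of 8 and 7 of 9, against 73.9% and 60.4%. A match is a description of the letters and not of a bound factor, no test was made on these counts, and whether the members stood above or below all peaks turned with the window in 7 of 20 such comparisons at 100 bp and in 8 of 20 at 500 bp.

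**Figure D4:**
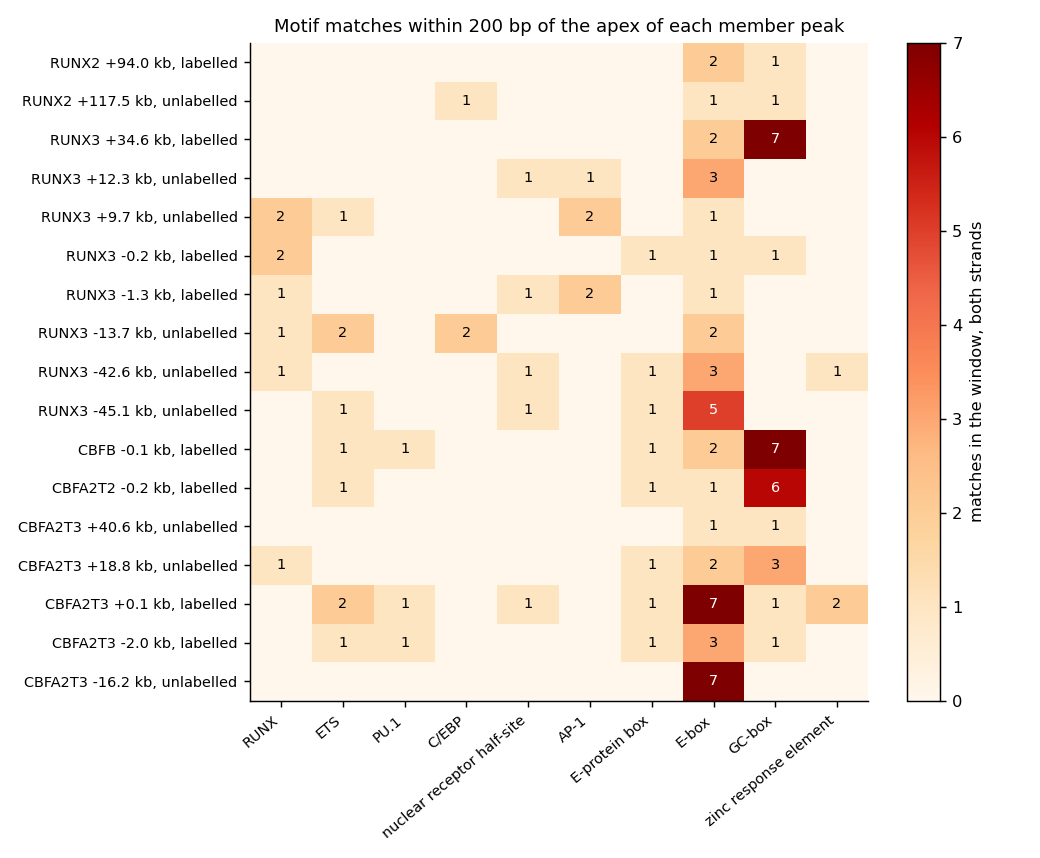
Number of motif matches on both strands within 200 bp of the apex of each of the 17 member peaks (rows, with the distance of the apex from the first coding start in kb) for 10 motifs (columns). RUNX matches lie in 6 rows, 5 of them of RUNX3, and GC-box matches are densest, 7 and 6, in the RUNX3 proximal, CBFB and CBFA2T2 promoter peaks.

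The arrangement of the RUNX matches at RUNX3 was examined after its windows had been seen. In the sequence of the distal promoter printed above, 2 RUNX motifs lie on the same strand with 2 bases between them, starting at bases 181 and 189. This arrangement occurred in 5 of 7169 labelled peaks (0.0697%), those of RUNX3, RUNX1, BRI3BP, GRHL3 and KCTD6, and in 10 of 8243 unlabelled peaks (0.121%). The RUNX1 peak with it was the one at its own distal promoter (chr21:36420386-36421889, 1504 bp, height 48). In the peak 1.3 kb upstream of RUNX3, a RUNX motif at base 163 is followed without a gap by a half-site at base 169, on the same strand. Such a joined pair was found in 2 labelled peaks (0.0279%), of RUNX3 and MED19, and in 2 unlabelled ones (0.0243%).

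RUNX1, the founding RUNX gene in blood, is the closest comparison for RUNX2 and RUNX3. Its 3 labelled peaks had heights of 47, 48 and 74 and widths of 2883, 1504 and 1048 bp, and lay at the proximal promoter (65 bp upstream of the start at 36260987), at the distal promoter and 2165 bp upstream of the distal start at 36421641. The highest labelled peak of RUNX3, at 43, was below all 3, and that of RUNX2, at 19, was lower still. The layout of the labelled peaks was the same in RUNX1 and RUNX3, with 1 at the proximal promoter, 1 at the distal promoter and 1 further upstream of the latter, and in both genes the proximal peak was the widest. They differed in order of height, since the upstream peak was the highest in RUNX1 and the lowest in RUNX3. With 1 value per peak these differences have no test.

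Genes of the same pathway were counted from lists that were drawn up with results of these data known, and the counts are therefore descriptive. Of all protein-coding genes, 30.0% had a peak under their symbol and 39.3% had an apex within 1 kb of a start site. Of 12 genes of the corepressor complexes that ETO proteins recruit, 10 had a peak under their symbol (83.3%, Wilson 95% interval 55.2% to 95.3%), the highest in SIN3A, the scaffold of the SIN3 deacetylase complex, which was 6203 bp wide with a height of 77, rank 9 of the list. The exceptions, named after their values were seen, were SIN3B and TBL1X. Of 11 genes of haematopoietic complexes that hold ETO proteins, 6 had one, the highest in LYL1 (height 51), a helix-loop-helix factor that pairs with E proteins. Those without were TCF4, TCF12, TAL1, GFI1B and ZBTB16, also named after their values were seen, although TCF12 and ZBTB16 had an apex within 1 kb of a start site. By position, 10 of the 12 and 8 of the 11 genes had such an apex.

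Of 12 RUNX cofactors and modifiers, 6 had a peak, the highest in PRMT1 (height 48), an arginine methyltransferase that acts on RUNX1. Of 11 myeloid genes known as RUNX1 targets, 7 had one (63.6%, Wilson 95% interval 35.4% to 84.8%), the highest in ITGAL (height 35), the integrin CD11a. Counted by position, 5 of the 11 had an apex within 1 kb of a start site, where 39.3% of protein-coding genes did. Among other fusion partners of RUNX1 or CBFB, ETV6 had a peak of height 20, and MYH11 and MECOM, named after their values were seen, had none. Over all 50 genes of these lists, RUNX1 included and the members left out, 31 had a peak (62.0%, Wilson 95% interval 48.2% to 74.1%), against the 30.0% of all protein-coding genes. These genes were picked for their role in blood cells and in transcription, and other genes of such roles were not counted.

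**Figure D5:**
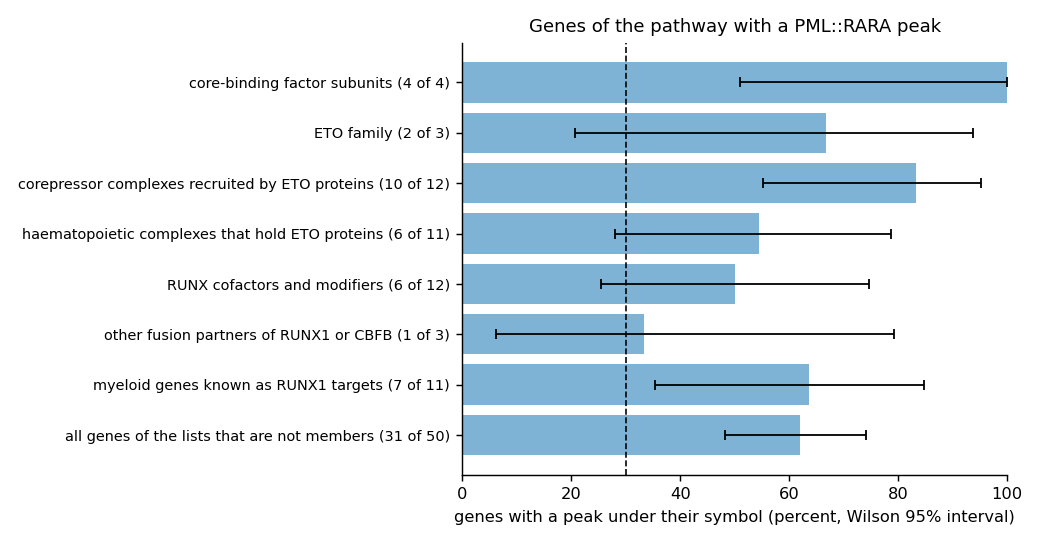
Percent of the genes in each list with a PML::RARA peak under their symbol (bars, axis from 0), with Wilson 95% intervals that cover the counting of genes only and the 30.0% of all protein-coding genes as a dashed line. The corepressor list stands at 83.3% (10 of 12) and all non-member genes together at 62.0% (31 of 50).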

How the data were processed

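Cut&Run was done with 2 antibodies in induced and uninduced U937-PR9 cells, in 2 replicates each. The list used here was assigned to induced cells and anti-PML-RARA through its name and the paper's description. Per the labels and the paper's methods, the authors used Trimmomatic for trimming, Bowtie2 for alignment to hg19, SAMtools for removal of duplicates and SEACR, run against the matched control, for peak calling, and an IDR filter kept peaks shared by the replicates. Blacklisted reads were removed, and tool versions are not given in the sources used here. For each peak they deposited a total signal and a score, which is the largest signal and is called height. The deposited column names differ from this reading, since the total stands in the column named summit and the largest signal in that named SEACR_score, and their content was read from the values, because the total was below height times width in all 15412 peaks. Neither their normalization nor whether they stem from 1 replicate or pooled reads is stated. The authors gave a symbol to peaks whose apex overlapped a promoter of a UCSC known gene. An IDR filter and a signal threshold remove weak sites, so a gene without a peak is not shown to be unbound.

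Positions were computed against GENCODE release 44 on GRCh37, which has the coordinates of hg19. In 34 peaks without an apex end the apex start was used. Ranks count from the highest or widest, ties share the best rank, and percentiles give the share of peaks below. Motif windows and printed sequences came from GRCh37, and sequence is printed for 7 of the 17 peaks. The counting was tested on simulated data. No test over samples was possible, and depth per library is unknown. Members and lists were chosen with earlier results of these data known. Genes named were all members, RUNX1, the gene with the highest peak in each list, and genes that share or neighbour a member's peaks. List genes without a peak and genes that share a motif arrangement with RUNX3 were named after their values were seen. Alternatives were distance limits, thresholds on height and width, merging of neighbouring peaks, ranking by total signal and other motif windows. Python 3.11.15, numpy 2.4.6, scipy 1.17.1, pandas 2.3.3 and matplotlib 3.10.9 were used.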

Additional observations from a re-analysis of the deposited data

How the results depend on the processing

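No paired analysis was possible because no value per replicate was given. Leaving out a replicate was not possible either. The number of members with a peak, 5, was the same by an apex within 1 kb or 3 kb of a start and among peaks at or above the median width, and fell to 2 among peaks at or above the median height, RUNX3 and CBFA2T3. That threshold also left 3 of the 8 labelled and 3 of the 9 unlabelled peaks. The unlabelled peaks numbered 20 within 100 kb, 6 within 25 kb and 7 over or within 10 kb of a member gene, and merging peaks under 1 kb apart left 6 labelled and 9 unlabelled. The median percentile of the labelled peaks, 43.0 by height, was 74.0 by total signal and 37.7 by height among labelled peaks, and 74.8 by width became 60.2 among labelled peaks. The counts follow from the peaks each setting removes or adds. For the percentiles the cause was not tested. The background share of protein-coding genes, 30.0% by symbol, was 39.3% by an apex within 1 kb of a start, and the cause was not tested. Peaks with a RUNX motif numbered 6 in the main window, 6 within 100 bp, 7 within 500 bp and 4 around the peak centre. Windows of 100 and 500 bp for the other motifs were chosen after seeing the data. Counting RUNX too, the members' share moved to the other side of that of all peaks in 7 of 20 comparisons at 100 bp and in 8 of 20 at 500 bp. For PU.1 it did not move, but it was above all peaks for labelled and below for unlabelled member peaks. The labelled peaks with PU.1 were of CBFB and CBFA2T3 only. Other shares, such as that of the E-box in labelled peaks, also kept their side.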

Other observations

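Higher peaks than any of the 17 lay beyond the 50 kb limit around RUNX3. Upstream, an unlabelled peak at chr1:25359875-25361795 reached a height of 53 over 1921 bp, with its centre 67806 bp from the nearest labelled RUNX3 peak. Downstream of the gene, unlabelled peaks at chr1:25174250-25176656 and chr1:25198702-25199378 had heights of 49 and 44. RUNX3 was the protein-coding gene with the nearest start site for all 3. Downstream of RUNX2, an unlabelled peak at chr6:45645034-45645927 had a height of 45, against 19 at the RUNX2 promoter, and lay 13351 bp from the end of the gene.

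The 500 bases upstream of the distal start of each RUNX gene were scanned for RUNX motifs after the pair at RUNX3 had been seen. RUNX3 had 2, at 131 and 123 bases upstream of its distal coding start. RUNX2 also had 2, at 178 and 74 bases, which do not form the same close pair, and no apex lay within 1 kb of this start. RUNX1 had 1, at 238 bases, which is outside the 401 bp window around its apex. Its close pair lay within that window but not within these 500 bases. Unlike the pair of RUNX3, it was therefore not within the bases scanned upstream of the distal start at 36421641. The RUNX1 distal group has 4 start sites, down to 36421567, and the place of the pair against the others was not determined.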
